A study of Mus musculus with 8 samples.

Results

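Jhy and 9 genes of motile cilia were followed through 8 RNA-seq libraries of pregnant mouse uterus, to see whether the fall of Jhy in the diphtheria toxin (DT) group was shared by other genes of the same organelle. The 10 genes, Jhy, Foxj1, Dnah5, Dnah9, Dnah11, Rsph1, Ccdc39, Ccdc40, Hydin and Tekt1, were picked by name and located by their Ensembl IDs in GENCODE M21, and all 10 were among the 49585 genes of the count table. Jhy was picked because it was lower in the DT group in these same libraries, so its own difference is given here as a description. The 9 others were picked as well-known cilia genes beside it. Of the 10, 9 passed the filter on low counts and Tekt1 did not.

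Each library came from the whole uterus, with the tissues of the conceptuses, of an 8-week-old Foxp3DTR female mated with a BALB/c male and collected on day 8 of pregnancy. The DT group (replicates 1, 3, 4 and 5) received 1 µg of DT into the peritoneal cavity at E1, E3, E5 and E7, and the PBS group (replicates 1, 2, 4 and 6) received PBS. Both groups carried the Foxp3DTR allele, which puts the DT receptor at Foxp3, the gene of the transcription factor of regulatory T cells, so that DT kills cells that express it. The labels' protocol states 85% depletion of these cells, and also describes the injections as daily. Each library was taken to be 1 female, since the labels do not say otherwise.

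Motile cilia are beating projections built on an axoneme, a ring of microtubule doublets around a central pair. Dynein arms on the doublets drive the beat, and radial spokes, the central pair apparatus and nexin links coordinate it. In the mouse female tract, multiciliated cells are a known feature of the oviduct, while the uterine lining holds few. Jhy is known in the mouse from mutants with juvenile hydrocephalus, in which the motile cilia of the ependyma, the lining of the brain ventricles, form or beat abnormally. Foxj1 is the transcription factor that switches on the motile cilia programme, and the RFX factors act with it on many of the same genes.

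Jhy (ENSMUSG00000032023) lies on the minus strand of chromosome 9 at 40894849 to 40964118 (GRCm38). It has 3 annotated transcripts in GENCODE M21, and their exons merge into 10 blocks of 3343 bases in all. None of those bases overlaps an exon of another gene (0%), and 0% of its stretches of 75 bases, the read length, recur in the exons of another gene. Because RFX and forkhead factors are the known regulators of cilia genes, the windows from 250 bases before to 50 bases after the annotated starts were read for their motifs. RefSeq promoters (GRCm38.p6) were matched for 8 of the 10 genes, those of Foxj1 and Rsph1 being not used here. The core letters of an RFX site, GTTGCC or its reverse complement GGCAAC, were in the windows of Hydin and Tekt1 and of 55 of 108 matched genes of the motile cilia lists (50.9%), against 14.1% of 27025 genes with a window. An RFX site with both of its facing arms, spelled GTTNCC and then, 3 bases on, GNAAC, and read on both strands, was in the window of Hydin and of 11 of the 108 list genes (10.2%), against 0.936% of all genes. This longer site can overlap the core letters. The forkhead core TAAACA, or its reverse complement TGTTTA, was in windows of Dnah5, Dnah11 and Jhy and of 23 of the 108 list genes (21.3%), against 15.1% of all genes. The window at the annotated start of Jhy is shown with those of Hydin and Tekt1, which carry the RFX letters, as a contrast of sequence. Hydin is shown for chr8:110266907-110267026 on the plus strand, Jhy for chr9:40964069-40964368 on the minus strand and Tekt1 for chr11:72361833-72361952 on the minus strand, all 5′ to 3′, with capitals on the RFX site in Hydin and on the RFX core letters in Tekt1.
Jhy: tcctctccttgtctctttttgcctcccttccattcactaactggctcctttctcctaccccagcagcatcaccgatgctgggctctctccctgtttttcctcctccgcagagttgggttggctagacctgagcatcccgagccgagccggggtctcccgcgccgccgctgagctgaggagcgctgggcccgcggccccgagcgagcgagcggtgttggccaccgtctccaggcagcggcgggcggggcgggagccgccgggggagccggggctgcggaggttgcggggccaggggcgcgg
Hydin: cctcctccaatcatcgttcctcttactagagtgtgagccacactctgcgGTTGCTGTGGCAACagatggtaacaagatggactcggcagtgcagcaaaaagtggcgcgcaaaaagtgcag
Tekt1: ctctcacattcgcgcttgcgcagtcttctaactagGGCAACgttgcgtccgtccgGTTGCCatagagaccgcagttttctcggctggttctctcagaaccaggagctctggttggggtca
None of the 3 RefSeq windows of Jhy holds the RFX letters, and the forkhead letters are only in the one at chr9:40962985-40963284. These letters are a description of the windows and were not compared with the counts.

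Total counts ranged from 94794512 to 109847604 per library, and values are given as CPM, counts relative to library sizes scaled by TMM. The uterine genes Hoxa11 and Pgr and the decidual prolactin Prl8a2 were all present, at 235 to 298, 237 to 320 and 687 to 5664 CPM in DT-labelled libraries, against 255 to 284, 270 to 387 and 2892 to 8957 CPM in PBS-labelled libraries. Foxp3 was at 5.12, 5.09, 5.72 and 5.69 CPM in DT-labelled libraries, against 4.89, 4.36, 5.44 and 4.86 CPM in PBS-labelled libraries, a log2 difference of 0.15 ± 0.10 (SE; edgeR adjusted p = 0.595). The gene that should mark the depleted cells was thus not lower, and the libraries are called by their labels. A list of 12 yolk sac and embryonic globin genes summed to 6.28, 17.9, 8.44 and 13.7 CPM in DT-labelled replicates 1, 3, 4 and 5, against 115, 496, 8.78 and 19.2 CPM in PBS-labelled replicates 1, 2, 4 and 6. PBS-labelled replicates 1 and 2 therefore stood apart from the other 6 libraries in their content of conceptus transcripts, and results are also given without them. A list of 14 T cell genes summed to 37.0 to 44.2 CPM in DT-labelled libraries, against 27.6 to 31.2 CPM in PBS-labelled libraries.

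Jhy was at 1.44, 1.78, 1.84 and 1.09 CPM in the DT-labelled libraries (185, 178, 180 and 112 counts), against 4.22, 4.64, 3.75 and 4.72 CPM in the PBS-labelled libraries (388, 450, 397 and 500 counts). Every DT-labelled library was below every PBS-labelled one, and the lowest PBS-labelled value was 2.04 times the highest DT-labelled value. The means were 1.53 ± 0.346 CPM in DT-labelled and 4.33 ± 0.447 CPM in PBS-labelled libraries (SD, n = 4 each), so that the mean was 2.82-fold lower in the DT group. In bulk tissue, fewer cells of a type and less RNA per cell cannot be told apart. The fitted log2 difference was -1.50 ± 0.18 (SE), with a 95% confidence interval of -1.92 to -1.08. In the fit over 22693 genes Jhy was the 1 gene that passed an edgeR adjusted p of 0.05 in the lower direction (0.00441% of genes tested), which is how it came to be chosen. Leaving out each library in turn gave log2 differences of -1.59 to -1.36, and the call was lost in 6 of the 8 cases, those without replicates 3, 4 and 5 of the DT-labelled and replicates 1, 2 and 6 of the PBS-labelled libraries. The mean of Jhy was 4.43 CPM in PBS-labelled replicates 1 and 2, which held the high globin sums, while replicates 4 and 6 of that group averaged 4.24 CPM. The part of conceptus content in the Jhy difference was not tested. Without replicates 1 and 2 the log2 difference was -1.47 ± 0.23 (SE), and its adjusted p by edgeR was 0.375.

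**Figure D1:**
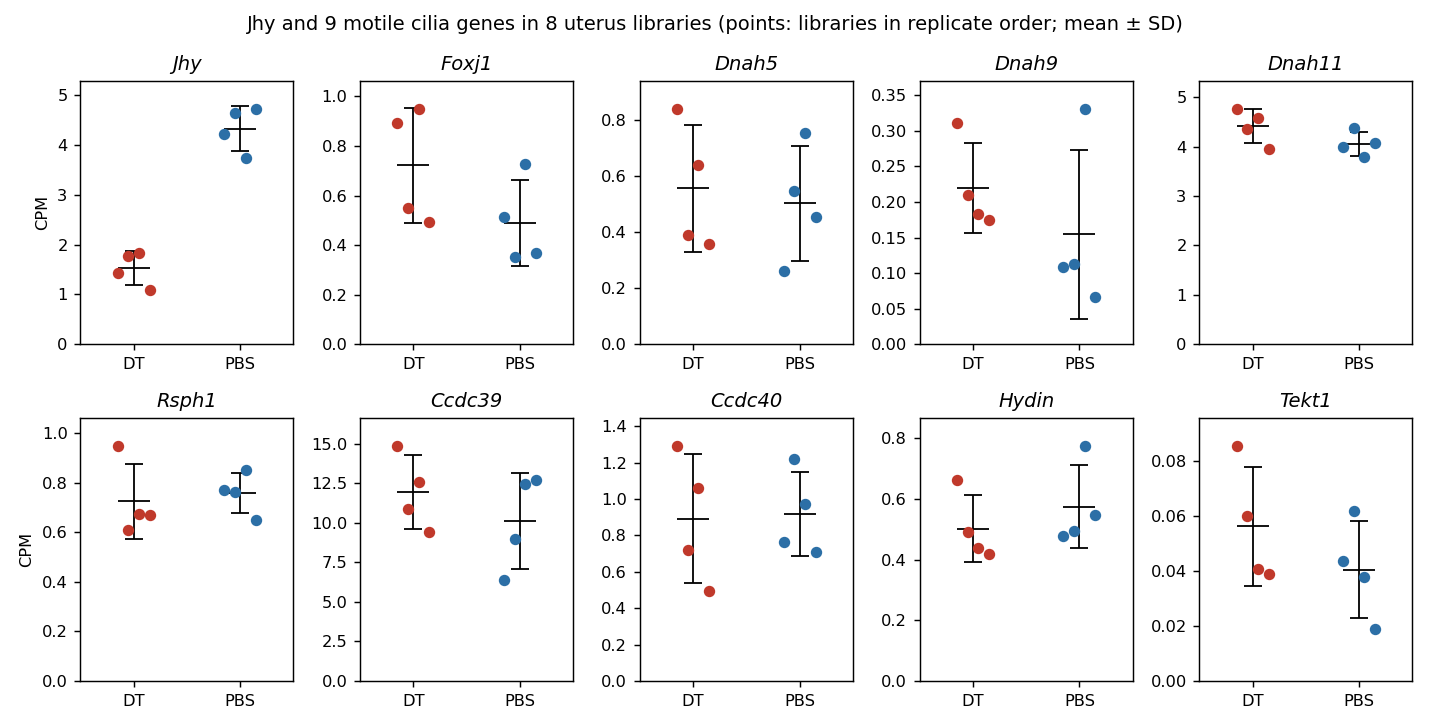
CPM (TMM-scaled, y axis, from 0, own scale per gene) of Jhy and 9 motile cilia genes in the 4 DT-labelled (red) and 4 PBS-labelled (blue) libraries, points in replicate order, with the mean and SD in black. Jhy is the gene of the 10 whose groups do not overlap, with 1.09 to 1.84 CPM in DT-labelled and 3.75 to 4.72 CPM in PBS-labelled libraries.

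None of the 8 other cilia genes tested passed the test in the direction of Jhy or the opposite one. All 8 had DT-labelled and PBS-labelled values that overlapped, while 5.06% of the genes tested had groups that did not. None of the 8 passed an adjusted p of 0.05 by edgeR, DESeq2 or limma voom, and none had an unadjusted edgeR p under 0.05 (0 of 8 each), where 0.326%, 1.34%, 0.229% and 8.7% of all genes tested did. Their log2 differences were positive for 5 and negative for 3, with a median of 0.13, against 0.01 over all genes tested. The edgeR adjusted p ranged from 0.571 to 0.968. The lowest bound of their 95% confidence intervals was -0.76, so each interval lay above the Jhy value of -1.50, and above the upper bound of the Jhy interval, -1.08. Because Jhy was chosen for its fall in this same fit, its value and interval are a description, and this gap is not a test. The highest bound was 1.61, so sizeable rises of some of these low genes were within the intervals. The plot of fitted changes shows the values gene by gene.

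**Figure D2:**
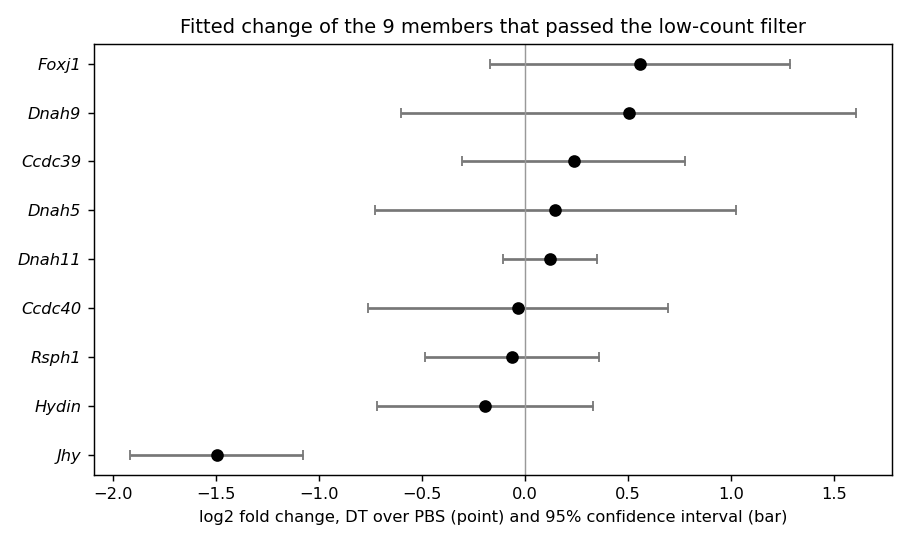
Log2 fold change of DT-labelled over PBS-labelled libraries (x axis; points, edgeR fit; bars, 95% confidence intervals) for the 9 genes that passed the low-count filter. Jhy is at -1.50 with a bar of -1.92 to -1.08, and the bars of the 8 other genes all cross 0.

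Foxj1, the transcription factor of the motile cilia programme, was at 0.894, 0.549, 0.948 and 0.495 CPM in DT-labelled libraries, against 0.512, 0.351, 0.727 and 0.368 CPM in PBS-labelled libraries. The 2 highest values were those of DT-labelled replicates 1 and 4, and PBS-labelled replicate 4 exceeded the other 2 DT-labelled libraries. Its log2 difference was 0.56 ± 0.32 (SE; edgeR adjusted p = 0.571), in the direction opposite to that of Jhy.

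The outer dynein arms, which carry most of the force of the beat, were represented by 3 heavy chains. Dnah5 was at 0.840, 0.390, 0.642 and 0.359 CPM in DT-labelled libraries, against 0.261, 0.547, 0.755 and 0.453 CPM in PBS-labelled libraries. Its groups covered nearly the same range, with a log2 difference of 0.15 ± 0.38 (SE) that turned to -0.11 without PBS-labelled replicates 1 and 2. Dnah9, its partner in the distal part of the axoneme in human airway cilia, was at 0.311, 0.210, 0.184 and 0.175 CPM in DT-labelled libraries, against 0.109, 0.113, 0.330 and 0.0661 CPM in PBS-labelled libraries. PBS-labelled replicate 4 held the highest Dnah9 value of all, and the other 3 PBS-labelled libraries the 3 lowest, so that the log2 difference of 0.50 ± 0.48 (SE) became 1.20 without that library (edgeR adjusted p = 0.152). Dnah11 was at 4.76, 4.37, 4.58 and 3.96 CPM in DT-labelled libraries, against 3.99, 4.37, 3.80 and 4.08 CPM in PBS-labelled libraries. It was the steadiest of the members, with a highest library 1.25 times the lowest and a log2 difference of 0.12 ± 0.10 (SE). Of the exon bases of Dnah11, 4.4% overlap Cdca7l on the other strand, and the strand setting of the counting is not given in the sources used here.

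Ccdc39 and Ccdc40 form the ruler along the doublets that sets the repeat of the inner arms and radial spokes. Ccdc39 was at 14.8, 10.9, 12.6 and 9.44 CPM in DT-labelled libraries, against 6.38, 8.96, 12.5 and 12.7 CPM in PBS-labelled libraries. PBS-labelled replicates 1 and 2 were the lowest, and the log2 difference of 0.24 ± 0.24 (SE) was -0.08 without them. The count of Ccdc39 is uncertain, because 16.9% of its exon bases overlap Ttc14 on the opposite strand, a gene at 90.3, 82.4, 78.1 and 72.2 CPM in DT-labelled libraries, against 57.3, 70.3, 77.7 and 89.1 CPM in PBS-labelled libraries. Highest in DT-labelled replicate 1 and lowest in PBS-labelled replicate 1, Ttc14 shared its extremes with Ccdc39, and its part in the Ccdc39 count was not tested. Ccdc40, which has no such overlap, was at 1.29, 0.719, 1.06 and 0.495 CPM in DT-labelled libraries, against 0.762, 1.22, 0.973 and 0.708 CPM in PBS-labelled libraries. Its DT-labelled values enclosed all 4 PBS-labelled ones, and its log2 difference was -0.03 ± 0.32 (SE).

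Rsph1, a protein of the radial spoke head, was at 0.949, 0.609, 0.673 and 0.670 CPM in DT-labelled libraries, against 0.773, 0.763, 0.850 and 0.652 CPM in PBS-labelled libraries. DT-labelled replicate 1 was above all PBS-labelled libraries and replicate 3 below them, and the log2 difference was -0.06 ± 0.18 (SE). Hydin, a very large protein of the central pair whose loss gives hydrocephalus in mice, was at 0.661, 0.489, 0.438 and 0.417 CPM in DT-labelled libraries, against 0.479, 0.495, 0.774 and 0.548 CPM in PBS-labelled libraries. Its log2 difference of -0.19 ± 0.23 (SE) was the most negative of the 8, with a 95% confidence interval of -0.72 to 0.33. Tekt1, a tektin of the doublet wall, had 11, 6, 4 and 4 counts in DT-labelled libraries, against 4, 6, 4 and 2 counts in PBS-labelled libraries. These counts are near the limit of 3 counts set here for detection, and Tekt1 was not tested.

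Per kilobase of exon, Ccdc39 and Jhy were the most abundant members in PBS-labelled libraries and Dnah9 the least abundant. In RPKM, which is CPM per kilobase of merged exons, Jhy was at 0.459 ± 0.104 in DT-labelled and 1.30 ± 0.134 in PBS-labelled libraries (SD, n = 4 each, as for all values here). Ccdc39 was at 1.60 ± 0.313 RPKM in DT-labelled and 1.36 ± 0.406 RPKM in PBS-labelled libraries. Rsph1 was at 0.529 ± 0.111 RPKM in DT-labelled and 0.553 ± 0.0594 RPKM in PBS-labelled libraries. Jhy thus differed from Ccdc39 by less than the SD in PBS-labelled libraries, and from Rsph1 by less than the SD in DT-labelled libraries. Dnah11 was at 0.305 ± 0.0238 RPKM in DT-labelled and 0.281 ± 0.0166 RPKM in PBS-labelled libraries. Foxj1 was at 0.275 ± 0.0887 RPKM in DT-labelled and 0.187 ± 0.0664 RPKM in PBS-labelled libraries, and Ccdc40 at 0.148 ± 0.0587 RPKM in DT-labelled and 0.152 ± 0.0384 RPKM in PBS-labelled libraries. Dnah11 and Foxj1 differed by less than the larger SD in DT-labelled libraries, and Foxj1 and Ccdc40 did so in PBS-labelled libraries. The other 4 genes, Dnah5, Hydin, Tekt1 and Dnah9, were between 0.0138 and 0.0357 RPKM in DT-labelled libraries, against 0.00970 and 0.0322 RPKM in PBS-labelled libraries. Among these 4, Dnah5, Hydin and Tekt1 did not differ beyond their spread.

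The 8 other genes varied between libraries more than between groups. For each gene, log2 CPM was centred on its own mean over the 8 libraries, and the 8 genes were averaged per library. The averages were 0.51, -0.08, 0.18 and -0.26 in DT-labelled replicates 1, 3, 4 and 5, against -0.33, -0.10, 0.35 and -0.26 in PBS-labelled replicates 1, 2, 4 and 6. DT-labelled replicate 1, PBS-labelled replicate 4 and DT-labelled replicate 4 were high, with 8, 7 and 6 of the 8 genes above their own mean. DT-labelled replicate 5 and PBS-labelled replicate 1 were low, with 1 gene above its mean in each. The order of Jhy within a group matched these averages in some libraries and not in others. DT-labelled replicate 5 was the lowest of its group in both, and DT-labelled replicate 4, high in the average, held the highest Jhy level of its group, while PBS-labelled replicate 4 held the lowest Jhy level of its group and DT-labelled replicate 1 the second lowest of its own. The same 3 libraries were high in Prss28 and Prss29, serine proteases of the uterine glands, which summed to 1265, 211, 417 and 247 CPM in DT-labelled replicates 1, 3, 4 and 5, against 26.4, 56.7, 391 and 296 CPM in PBS-labelled replicates 1, 2, 4 and 6. Ovgp1, a secreted glycoprotein best known from the oviduct, was at 12.2, 1.39, 7.38 and 4.98 CPM in DT-labelled libraries, against 0.936, 1.22, 12.9 and 10.7 CPM in PBS-labelled libraries. Its 2 highest libraries were those highest in the cilia average, PBS-labelled replicate 4 and DT-labelled replicate 1, but PBS-labelled replicate 6, low in that average, ranked next. Prss28 and Prss29 were picked after their values were seen, from a list of 26 uterine epithelium and gland genes. Of these 26, 13 had positive and 13 negative log2 differences. The whole list summed to 1771, 570, 814 and 621 CPM in DT-labelled replicates 1, 3, 4 and 5. In PBS-labelled replicates 1, 2, 4 and 6 it summed to 449, 690, 762 and 622 CPM. Prss28 and Prss29 are part of these sums, so the sums are not a separate reading of epithelial content. The 2 genes made up 1265 of 1771, 417 of 814 and 391 of 762 CPM in DT-labelled replicates 1 and 4 and PBS-labelled replicate 4. In PBS-labelled replicate 2 they made up 56.7 of 690 CPM. The rest of the list was thus higher in PBS-labelled replicate 2 than in any of those 3 libraries, unlike Prss28 and Prss29. The part of epithelial content in the cilia values was not tested. Without DT-labelled replicate 1 the median log2 difference of the 8 genes was -0.02, and without PBS-labelled replicate 1 it was 0.01.

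**Figure D3:**
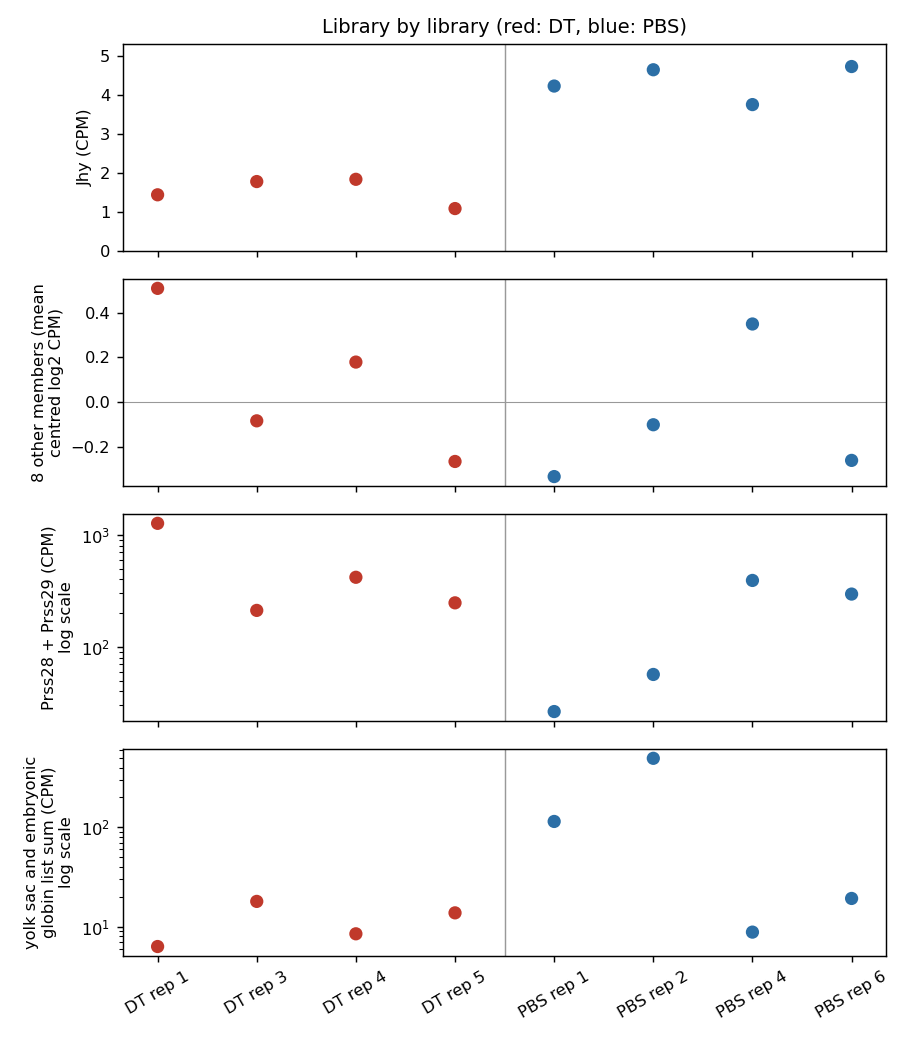
Values by library (x axis, DT-labelled in red left of PBS-labelled in blue): Jhy in CPM, the mean centred log2 CPM of the 8 other members, the summed CPM of Prss28 and Prss29 and the summed CPM of 12 yolk sac and embryonic globin genes (both on log axes). Jhy splits by label, the cilia average is high at 0.51, 0.18 and 0.35 in DT-labelled replicates 1 and 4 and PBS-labelled replicate 4, and the globin sum is high at 115 and 496 CPM in PBS-labelled replicates 1 and 2.

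Part of the list of multiciliated cell markers was near 0 in every library. Of 21 listed, 10 passed the low-count filter and 8 had at most 10 counts in every library, namely Fam183b, Ccdc153, Dynlrb2, Sntn, Pifo, Fam216b, Dydc2 and Ccdc113. Sntn, a protein of the ciliary tip, had 0 counts in all 4 DT-labelled libraries, against 0, 0, 5 and 0 counts in the PBS-labelled ones. Ccdc153 had 0, 1, 0 and 0 counts in DT-labelled libraries, against 1, 0, 9 and 0 counts in PBS-labelled libraries. For both genes the highest count was in PBS-labelled replicate 4, the library with the highest Ovgp1 level. Ccdc113, another of the 8, was highest in PBS-labelled replicate 2. It had 2, 5, 4 and 3 counts in DT-labelled libraries, against 4, 7, 3 and 2 counts in PBS-labelled libraries. Sntn and Ccdc153 were picked out of the 8, so their shared library is not a result about these markers. A count of 0 allowed a level of up to 0.0233 to 0.0327 CPM, for counting error alone. The 21 markers summed to 35.2 to 39.9 CPM in DT-labelled libraries, against 33.2 to 36.2 CPM in PBS-labelled libraries. Most of that sum was Tppp3, at 15.4 to 19.3 CPM in DT-labelled and 13.9 to 18.6 CPM in PBS-labelled libraries, and Cfap43, at 14.4 to 15.8 CPM in DT-labelled and 12.0 to 15.5 CPM in PBS-labelled libraries. Of the 10 markers tested, 8 had positive and 2 negative log2 differences. Tctex1d4, with the smallest p of them, was at -0.71 (edgeR adjusted p = 0.571). Mcidas, which starts multiciliated differentiation, was at 0 to 0.0291 CPM in DT-labelled and 0.00944 to 0.0109 CPM in PBS-labelled libraries. Noto, a gene of the embryonic node, whose cells carry single motile cilia, was at 0.0102 to 0.0400 CPM in DT-labelled and 0 to 0.0218 CPM in PBS-labelled libraries. Both genes are low members of lists that are mostly present. Of the 16 regulators listed with Mcidas included, 11 passed the low-count filter, as did 11 of 14 listed genes of the node and of left-right patterning. The node list, with Noto, summed to 228 to 276 CPM in DT-labelled and 250 to 283 CPM in PBS-labelled libraries. Jhy had 112 to 500 counts in the same libraries, and its cell source was not tested.

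Across the wider set of motile cilia genes, the list medians of log2 difference were far from the value of Jhy. Of 132 genes in 8 lists, 101 passed the low-count filter, and 22 of the 31 others had at most 10 counts in every library. The median log2 difference of the 101 was 0.12, with 64 positive and 37 negative, against 0.01 over all genes tested, and it was -0.02 without PBS-labelled replicates 1 and 2. By edgeR 0 of the 101 passed an adjusted p of 0.05, unadjusted p was under 0.05 for 1 with a higher and 4 with a lower level in the DT group, DESeq2 called 1 and limma voom 0. Over all genes tested, edgeR called 0.326%, DESeq2 1.34% and limma voom 0.229%, and 4.72% were higher and 3.98% lower at that unadjusted p, so the counts of calls among the 101 are near the background. The groups did not overlap for 4 of the 101, of which 1 was above and 3 below, where 3.33% of all genes were above and 1.73% below.

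By role, the medians of log2 difference lay close to 0 in every list. The transcription factors and other regulators of the programme had a median of 0.15 (11 tested of 16). The outer arm genes had a median of 0.09 (13 of 15), the inner arm genes 0.00 (11 of 12) and the cytoplasmic assembly factors of the arms 0.02 (10 of 11). The radial spoke and central pair genes had a median of 0.13 (19 of 24), the nexin link and ruler genes 0.12 (12 of 14), and the tektins and other proteins inside the doublets 0.22 (16 of 21). The genes of primary cilia and of intraflagellar transport, which also serve non-motile cilia, had a median of 0.10 (43 of 43). Genes tied to hydrocephalus or to ependymal cilia, Jhy among them, had a median of 0.15 (15 of 18). The plot of the lists shows Jhy apart from all of them except for single genes.

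**Figure D4:**
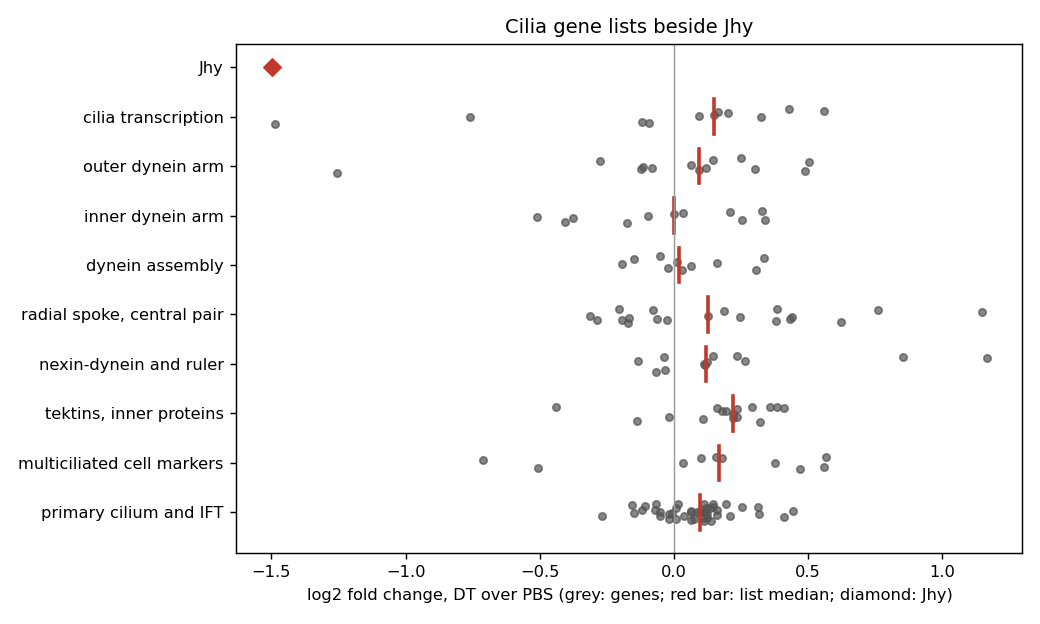
Log2 fold change of DT-labelled over PBS-labelled libraries (x axis) for the tested genes of 9 cilia lists (rows; grey points, genes, spread up and down for legibility; red bars, list medians) and for Jhy (diamond, top row). List medians lie between 0.00 and 0.22, Jhy is at -1.50, and Trp73 in the transcription list is at -1.49.

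Cfap206, a component at the base of the radial spokes, had the smallest p of the motile cilia lists, with values higher in the DT group. It was at 0.832, 0.769, 0.846 and 0.708 CPM in DT-labelled libraries, against 0.283, 0.237, 0.567 and 0.331 CPM in PBS-labelled libraries, with every DT-labelled value above every PBS-labelled one. Its log2 difference was 1.15 ± 0.27 (SE), with an adjusted p of 0.254 by edgeR and of 0.00663 by DESeq2. Without PBS-labelled replicate 4, its highest PBS-labelled library, the log2 difference was 1.47 and the edgeR adjusted p 0.0444. In the same list Rsph3b, a spoke stalk gene with a close copy, Rsph3a, had a log2 difference of -0.29 ± 0.13 (SE; edgeR adjusted p = 0.571).

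Trp73, whose p73 protein acts upstream of Foxj1 in multiciliated cells, was the gene of the lists with a log2 difference nearest to that of Jhy, at -1.49 ± 0.55 (SE; edgeR adjusted p = 0.553). It was at 0.140, 0.170, 0.112 and 0.175 CPM in DT-labelled libraries, against 0.544, 0.815, 0.161 and 0.170 CPM in PBS-labelled libraries. Its higher values were confined to PBS-labelled replicates 1 and 2 among the 8 libraries, unlike those of Jhy. Myb, which acts early in the multiciliated programme and is also a blood progenitor gene, was likewise highest in those 2 libraries, at 2.46, 3.35, 2.93 and 3.49 CPM in DT-labelled libraries, against 5.99, 7.37, 3.21 and 4.15 CPM in PBS-labelled libraries (log2 difference -0.76 ± 0.26 SE, edgeR adjusted p = 0.540). The RFX factors Rfx2 and Rfx3 had log2 differences of 0.43 ± 0.21 and 0.20 ± 0.21 (SE), and neither passed the test.

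Among the dyneins, Dnaic1, an intermediate chain of the outer arm, was at 0.109, 0.0899, 0.0306 and 0.107 CPM in DT-labelled libraries, against 0.141, 0.309, 0.217 and 0.151 CPM in PBS-labelled libraries. Its groups did not overlap, at counts close to the filter, and the log2 difference was -1.26 ± 0.41 (SE; edgeR adjusted p = 0.509). Dnaic2, the other intermediate chain, was at 0.499 to 0.786 CPM in DT-labelled and 0.316 to 0.576 CPM in PBS-labelled libraries. The assembly factor Dnaaf5 was at 17.5 to 18.5 CPM in DT-labelled and 18.6 to 20.96 CPM in PBS-labelled libraries, a small gap with a log2 difference of -0.15 ± 0.06 (SE; edgeR adjusted p = 0.571). The inner arm heavy chain genes Dnah6 and Dnah12 had log2 differences of 0.33 ± 0.18 and -0.51 ± 0.40 (SE). The nexin link genes Tcte1 and Fbxl13 had log2 differences of 1.17 ± 0.52 and 0.86 ± 0.44 (SE), and both were highest in DT-labelled replicate 1. None of these genes passed the edgeR test.

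The likeness of other genes to Jhy across the 8 libraries was described next. It was the root mean square difference between 2 profiles of log2 CPM, each centred on its mean, and it had a median of 0.825 over 22692 other genes. By this measure Fyb2 (0.433), Frmpd1 (0.445), Minar1 (0.447), Zfhx4 (0.472) and Ccdc141 (0.473) were the closest genes with an assigned name and a mean log2 CPM of 0 or more, at ranks 8, 10, 12, 18 and 20. Most of the cilia members were under this limit on level, but the ranks below are among all 22692 genes without the limit. The nearest of the cilia members was Hydin (0.760), at rank 5767, and the farthest was Dnah9 (1.27), at rank 21675. Rsph1 ranked 8907, Ccdc40 9967, Dnah11 12064, Ccdc39 17741, Dnah5 18386 and Foxj1 20605. These ranks describe 8 libraries, and the split by label is part of the likeness. Minar1 was at 31.6, 40.5, 45.4 and 33.9 CPM in DT-labelled libraries, against 72.3, 55.9, 59.9 and 59.2 CPM in PBS-labelled libraries. Frmpd1 was at 25.02, 35.5, 41.7 and 31.2 CPM in DT-labelled libraries, against 61.1, 60.5, 46.7 and 50.9 CPM in PBS-labelled libraries. Both had groups that did not overlap, as did Zfhx4, a zinc finger and homeobox transcription factor gene, and Ccdc141, while those of Fyb2 did. Of all genes tested, 1.73% had every DT-labelled value below every PBS-labelled one. Because the 5 were picked for likeness to Jhy in these same libraries, their lack of overlap is a description and not a result. The 5 log2 differences were between -0.92 and -0.68, with edgeR adjusted p of 0.110 to 0.263, so none passed the test and all were smaller in size than that of Jhy.

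The tested genes around Jhy on chromosome 9 did not pass the edgeR test. Within 500 kb of Jhy, 32 other genes were in the table and 15 passed the low-count filter, with 8 negative and 7 positive log2 differences and a median of -0.03. By edgeR 0 of the 15 passed an adjusted p of 0.05 (smallest 0.276), 2 had an unadjusted p under 0.05, DESeq2 called 1 and limma voom 0. Over all genes tested these shares were 0.326%, 8.7%, 1.34% and 0.229%, so counts this small over 15 genes are near the background. The DT-labelled values lay wholly above the PBS-labelled ones for 1 of the 15 and wholly below for 1. Of all genes tested, 3.33% were above and 1.73% below in this way. Crtam, an adhesion receptor of activated T and NK cells that lies 5.57 kb beyond the start of Jhy on the same strand, was at 0.607, 0.569, 0.663 and 0.572 CPM in DT-labelled libraries, against 0.501, 0.547, 0.330 and 0.406 CPM in PBS-labelled libraries. Its log2 difference had the opposite sign to that of Jhy, at 0.44 ± 0.19 (SE; edgeR adjusted p = 0.571), and its groups did not overlap. Ubash3b, a phosphatase gene 47.0 kb away, had a log2 difference of -0.29 ± 0.17 (SE), and its 2 highest libraries were PBS-labelled replicates 1 and 2. Hspa8, which encodes a constitutive heat shock protein, and Clmp, an adhesion molecule gene, lie 84.8 and 110 kb beyond the other end of Jhy. Their log2 differences were 0.00 ± 0.10 and -0.03 ± 0.11 (SE). The gene that DESeq2 called was Gm17540, a lincRNA 361 kb away, at 0.124, 0.230, 0.122 and 0.194 CPM in DT-labelled libraries, against 1.23, 2.05, 0.283 and 0.482 CPM in PBS-labelled libraries (log2 difference -2.59 ± 0.63 SE, DESeq2 adjusted p = 0.00198). Beside it Gramd1b, which codes for a sterol transfer protein, was at 49.4, 140, 90.9 and 145 CPM in DT-labelled libraries, against 320, 389, 83.4 and 171 CPM in PBS-labelled libraries. The groups of Gm17540 did not overlap, with the DT-labelled values below as for Jhy, while those of Gramd1b did. Both genes were highest in PBS-labelled replicates 1 and 2. The Jhy values of these libraries, 4.22 and 4.64 CPM, lay between the 3.75 and 4.72 CPM of PBS-labelled replicates 4 and 6.

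**Figure D5:**
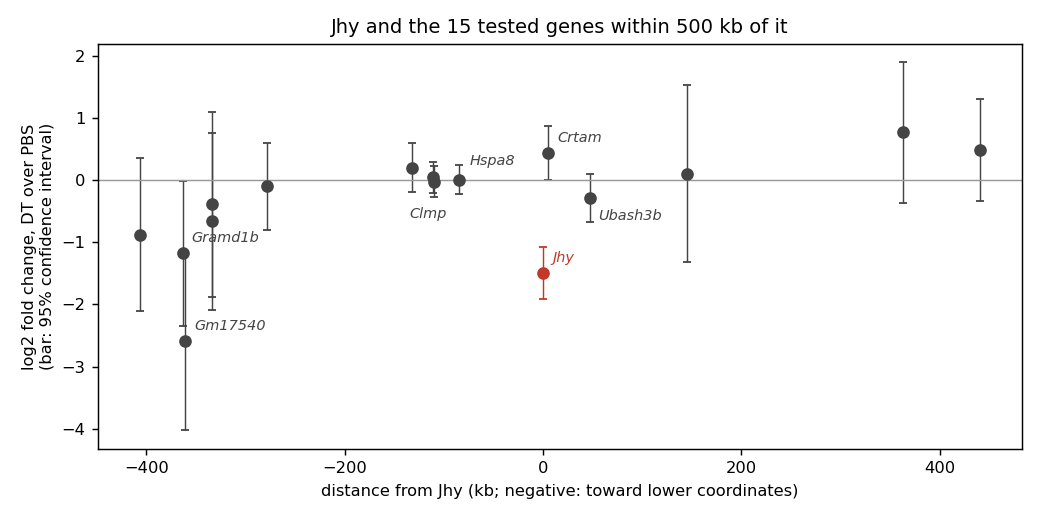
Log2 fold change of DT-labelled over PBS-labelled libraries (y axis; points, edgeR fit; bars, 95% confidence intervals) against distance from Jhy in kb (x axis; 0 is Jhy, in red) for the 15 tested genes within 500 kb. Crtam, the nearest tested gene, is at 0.44 and Hspa8 at 0.00, while Gm17540 and Gramd1b, 361 and 363 kb away, are at -2.59 and -1.18.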

How the data were processed

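RNA from 4 DT-labelled and 4 PBS-labelled uteri was made into Kapa mRNA libraries and read in pairs of about 75 bases on a NextSeq 500, per the labels' protocols. The values deposited by the authors are raw counts of reads for each Ensembl gene. The tools were DESeq2, featureCounts, HISAT2, SAMtools and Trimmomatic with build GRCm38, per the submitters' processing notes, with versions, roles, strand setting and annotation release not given in the sources used here. The table of the series and the tables of each library differed in 0 cells, and 49326 of 49585 IDs matched GENCODE M21. The other 259 IDs held 0.076% of the counts. No pair of libraries agreed within sampling noise (smallest chi-square per degree of freedom 26.3).

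Genes were kept by filterByExpr (minimum count 10, minimum total 15), which left 22693, and compared with the robust quasi-likelihood test of edgeR 4.0.16 in R 4.3.3, two-sided, on TMM-scaled counts, with no covariate. Benjamini-Hochberg adjustment covered every gene tested, with a threshold of 0.05. The common dispersion of 0.0626 corresponds to a biological coefficient of variation of 25%. At total counts of 94794512 to 109847604, differences between females limited the precision for Jhy, and counting error that for genes with few counts. Sample titles also carry a code, S1 for PBS-labelled replicates 1 and 2 and S2 for PBS-labelled replicates 4 and 6. The code is S3 for DT-labelled replicates 1 and 3 and S4 for DT-labelled replicates 4 and 5. Its meaning is not given, and each code lies within 1 group, so it cannot be told apart from treatment. The libraries of S1 are those high in conceptus transcripts. Nothing in the labels says how the females were housed or processed, so p-values measure the spread between these libraries. Fold changes are on the log2 scale of the fit. RPKM used the merged exon length of each gene. Likeness to Jhy used log2 CPM with a prior count of 2. Alternatives were DESeq2 1.42.0, limma voom 3.58.1, other scalings and filters, each library left out, a replicate block, and a fit without PBS-labelled replicates 1 and 2. The scripts were tested on simulated data. Genes named were all members and the 5 nearest to Jhy without a predicted-model symbol and averaging 0 or more in log2 CPM. Tested neighbours within 500 kb and the called or 2 lowest-p genes of each list were also to be named. Only a part of these is given in the text, and the called T cell genes are not. Ttc14, Rfx2, Rfx3, Prss28, Prss29, Ovgp1, Tppp3, Cfap43, Sntn, Ccdc153, Ccdc113, Mcidas, Noto and the tissue markers were named after their values were seen. The members and lists were chosen with earlier results of these data known.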

Additional observations from a re-analysis of the deposited data

How the results depend on the processing

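Jhy stayed lower in the DT group in every fit run, but its edgeR call depended on which libraries were in the fit. Leaving out each library in turn gave log2 differences of -1.59 to -1.36 and adjusted p of 0.0380 to 0.131, and the call was kept only without DT-labelled replicate 1 or PBS-labelled replicate 4. In each of the 6 fits that lost it, 0 genes of the whole table were called in either direction. The SE of Jhy in those 6 was 0.15 to 0.21, beside 0.18 with all libraries. The Jhy call was also lost without PBS-labelled replicates 1 and 2, an alternative chosen after seeing the data (-1.47, adjusted p = 0.375). Other scalings, filters, DESeq2 and limma voom kept it (-1.52 to -1.38). The counts of genes called over the whole table, 73 higher and 1 lower, were 270 and 71 by DESeq2 and 0 to 115 and 0 to 5 with 1 library left out. Without PBS-labelled replicates 1 and 2 they were 0 higher and 1 lower, and that 1 gene was not Jhy. With scaling by library size alone 2 genes were lower, and the median of all genes shifted by 0.11. Among motile cilia genes 0 were called, against 1 by DESeq2 and 0 to 1 with 1 library left out, Cfap206 in both cases.

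Replicate numbers 1 and 4 occur in both groups. Deviations from the group means correlated at -0.62 and 0.34 over 16078 genes for these numbers. Libraries of unlike numbers correlated from -0.73 (DT-labelled 5 with PBS-labelled 4) to 0.67 (DT-labelled 1 with PBS-labelled 4), so these values cannot show or exclude pairing. The labels do not say that a number marks a pair, and the numbers were not taken as pairs. A replicate block on the 4 libraries of numbers 1 and 4 called 0 genes higher and 0 lower, with Jhy at -1.30 (edgeR adjusted p = 0.996). The same 4 libraries with no block called 0 and 0, with Jhy at -1.29 (edgeR adjusted p = 0.801).

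Some small log2 differences changed sign, and the cause was not tested. With 1 library left out Dnah5 ranged from -0.12 to 0.41, Rsph1 from -0.22 to 0.013 and Ccdc40 from -0.27 to 0.16. Scaling by library size alone gave 0.066 for Rsph1 and 0.11 for Ccdc40, beside that shift of all genes. The block gave 0.44 for Ccdc40, as did no block. Without PBS-labelled replicates 1 and 2, Dnah5 was at -0.11, Ccdc39 at -0.078 and Ccdc40 at 0.087. Foxj1, Dnah9, Dnah11 and Hydin kept their sign in every fit that held them, and the stricter filter removed Dnah9 and Hydin. Depth limits Tekt1, Dnah9 and those multiciliated markers that were near 0.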
